A study of Equus caballus with 19 samples.

Results

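The genes described here are 6 cathepsins (CTSB, CTSD, CTSK, CTSL, CTSS and CTSZ) and 4 genes of lysosomal membrane proteins (CD68, LAMP1, LAMP2 and LAPTM5), 10 of the 29196 gene names in the count tables. They were taken by gene name, and they had been chosen by their expression in these same libraries, so their values are given as a description without p-values. Equine tenocytes, the resident fibroblasts of tendon, were derived from the superficial digital flexor tendon of 8 wild type horses, 1 line per horse, and cultured in gels of bovine type I collagen for 14 days. Control gels received no cytokine, IL-1β gels received 1 nM of the inflammatory cytokine interleukin-1 beta, and IL-1β + IL1Ra gels received the same dose together with 100 ng/ml of the interleukin-1 receptor antagonist. The first batch held lines 1 to 5 in control and IL-1β (10 libraries) and the second held lines 6 to 8 in all 3 conditions (9 libraries). RNA came from whole gels, and in these libraries IL1Ra was given only together with IL-1β, with no library of IL1Ra alone.

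Lysosomes are acidic organelles in which proteins, glycans and lipids are broken down. Cathepsins are their proteases: most are cysteine proteases, CTSD is an aspartic protease, and all are made as inactive precursors that mature in acid. LAMP1 and LAMP2 are heavily glycosylated proteins that line the lysosomal membrane, CD68 is a related protein best known as a macrophage marker, and LAPTM5 is a lysosomal protein known mainly from blood cells. Connective tissue cells also secrete cathepsins, and CTSK is known for cleaving native type I collagen, the main protein of tendon.

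All values are normalised read counts, which the authors had scaled for library size within a batch, and levels were compared within a batch only. First-batch libraries summed to between 43393903 and 49197980, and second-batch libraries to between 24964149 and 34602014. The scale corrects for depth but not for transcript length, so levels were compared between libraries and not between genes. Of the 12 tenocyte markers examined, 11 were in the tables, with a summed level of 177457 to 1912100 per library. TNMD, the gene of tenomodulin, was at 0 in 10 of 10 first-batch libraries and 8 of 9 second-batch libraries. In the first batch 7 of the 10 tenocyte markers tested were downregulated by IL-1β, led by SCX (log2-fold change -4.25) and COMP (-4.08, not DE without line 5). TNC, THBS4 and COL1A2 were also not DE without line 5, and TNC and THBS4 without some other lines. Of the 10 markers, 2 had a higher mean with IL-1β, 1 of them at a limma adjusted p under 0.05. In the second batch 0 of 10 were DE with IL-1β, beside 0.341% of all genes, and 8 had a lower and 2 a higher mean. With the tenocyte line as a block in the fit 3 of 10 were DE, beside 5.18% of all genes. All 3 were lower: COMP (-3.69), SCX (-3.18) and TNC (-2.25). The part of these marker changes in the levels of the lysosomal genes was not tested. In such bulk samples, fewer cells of a type and less RNA per cell cannot be told apart.

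With IL-1β in lines 1 to 5, CD68, CTSS and CTSD were higher in every line and CTSL and CTSZ were lower in every line, with no overlap between the control and IL-1β gels for these 5 genes. LAPTM5 was lower in 4 of 5 lines. CTSK, CTSB, LAMP1 and LAMP2 differed by less than 1.5-fold on average. A gene was called differentially expressed (DE) when its adjusted p in limma was under 0.05 and its log2-fold change was at least 1 in either direction, and 5 of the 10 genes met both criteria, 3 higher and 2 lower. Over all 14719 genes tested, 12.8% were DE, 4.91% higher and 7.9% lower. Groups did not overlap for 19.5% of all genes, 9.34% higher and 10.2% lower. Since the genes had been chosen on these values, nothing is read from the excess. The median log2-fold change of the 10 genes was 0.04, beside -0.0034 over all genes tested.

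CTSD, the aspartic protease, read 20044, 21872, 32009.5, 23886 and 28527 in the control gels of lines 1 to 5. With IL-1β it read 95311, 75689, 61601, 43359 and 72799. The lowest IL-1β gel stood above the highest control gel. The log2-fold change was 1.44 (SE 0.21, n = 5 lines), a 2.71-fold higher level, and it ranged from 0.86 in line 4 to 2.25 in line 1.

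CTSS, a cysteine protease that stays active at neutral pH and trims the class II invariant chain in antigen-presenting cells, read 1851, 1808, 1645, 674 and 894 in control. With IL-1β it read 4559.9, 5416, 7177, 4218 and 4310.2. Lines 4 and 5 had the lowest control levels, and in IL-1β they were close to line 1. The level was 3.95-fold higher (log2-fold change 1.98, SE 0.29), from 1.30 in line 1 to 2.64 in line 4.

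CTSK, the collagen-cleaving cysteine protease, read 14166, 9404, 14899, 14605 and 14645 in control and 12717, 20935, 26216, 17746 and 24919.6 with IL-1β. It was higher in 4 of 5 lines. Line 1 was slightly lower with IL-1β, and line 2 began from a control level well under the other controls. The groups overlapped, and the log2-fold change was 0.57 (SE 0.21), under the DE minimum.

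CTSL, a broadly expressed cysteine protease, was listed at low counts in these tables. It read 135, 165, 38.1, 229.6 and 83.9 in control and 14.5, 28.0, 12.5, 29.1 and 33.3 with IL-1β. All 5 IL-1β gels stood below all 5 control gels, although line 3 in control came close to line 5 in IL-1β. The log2-fold change was -2.29 (SE 0.49), a 4.88-fold lower level. At these counts the added pseudocount of 1 shrinks a fold change, and whether reads of CTSL were assigned to similar gene copies was not tested.

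CTSZ, a carboxypeptidase among the cysteine cathepsins, read 5444, 6555, 7205, 5287 and 5503 in control and 2002, 3503, 3451, 2742 and 3922 with IL-1β. It was 1.96-fold lower (log2-fold change -0.97, SE 0.18), with no overlap, and so lay just outside the DE fold minimum. Without line 5, where the difference was smallest (-0.49), the log2-fold change was -1.09 and both criteria were met. CTSB, an abundant cysteine protease with both endopeptidase and exopeptidase activity, read 32449 to 38567 in control and 25729 to 33980.5 with IL-1β. It was lower in 5 of 5 lines, but by only 1.24-fold (log2-fold change -0.31, SE 0.12), and the groups overlapped.

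**Figure D1:**
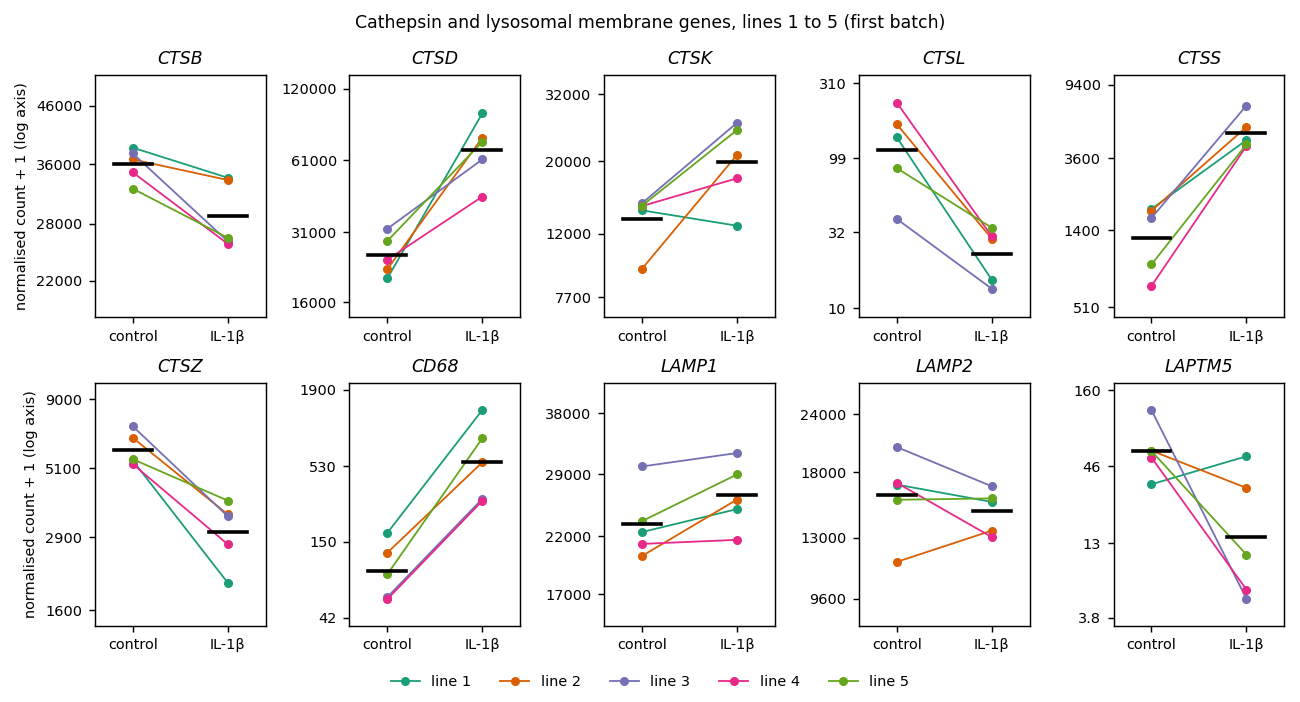
Normalised count plus 1 (y axis, log scale, its range set per gene) of the 10 genes in control and IL-1β gels of lines 1 to 5. Each point is 1 library, a coloured line joins the gels of 1 tenocyte line, and black bars are means of the log2 values. CTSD, CTSS and CD68 are higher and CTSL and CTSZ lower in every line, LAPTM5 is higher in line 1 only, and the LAMP1 and LAMP2 groups overlap.

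Among the membrane proteins, CD68 had the largest difference of the 10 genes. It read 173, 124, 58.3, 56.4 and 86.0 in control and 1359, 565, 306, 296 and 846 with IL-1β. Line 1 was the highest and line 4 the lowest in both conditions. The level was 6.21-fold higher (log2-fold change 2.64, SE 0.47), from 2.18 in line 2 to 3.28 in line 5.

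LAPTM5 went the other way in most lines but was sparse. It read 33.2, 58.4, 114, 52.0 and 58.0 in control and 53.1, 31.2, 4.2, 5.04 and 9.74 with IL-1β. Lines 3, 4 and 5 were far lower with IL-1β, line 2 was lower by less, and line 1 was higher. The log2-fold change of -2.06 (SE 0.66) met both DE criteria in the fit of 5 lines. With tenocyte line blocked it did not meet them, nor did it without a filter on low values or when line 2, 3, 4 or 5 was left out, and it was -1.45 without line 3. With the block 4 of the 10 genes were DE, beside 16.2% of all genes.

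The 2 structural membrane proteins differed little. LAMP1 read 20146 to 30005 in control and 21640.1 to 31849 with IL-1β, and it was higher in 5 of 5 lines by a log2-fold change of only 0.18 (SE 0.14). LAMP2, which also serves as a receptor in chaperone-mediated autophagy, read 11536 to 20382 in control and 13047 to 16783 with IL-1β, with a log2-fold change of -0.11 (SE 0.15). Both sets of groups overlapped.

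In lines 6 to 8, IL-1β went with higher CTSD, CTSK and CTSS and lower CTSZ without overlap between the conditions, as for 16.4% of all genes tested. Of the 9 genes that passed the filter on low values, 0 were DE in limma, in a comparison of 3 lines in which 57 of 16705 genes (0.341%) were. At an unadjusted p under 0.05 were 4 of the 9 genes and 11.4% of all genes, from which nothing is read since the genes were chosen on these values. With the line as a block, CTSD, CTSK and CD68 met both criteria, all higher, beside 5.18% of all genes DE and 2.59% DE and higher.

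CTSD read 17639, 16609.7 and 11333 in the controls of lines 6, 7 and 8, and 30176, 82645 and 35165 with IL-1β. Line 7 had by far the highest IL-1β level. The log2-fold change was 1.57 (SE 0.43, n = 3 lines), with line ratios of 0.77, 2.31 and 1.63 on the log2 scale. CTSK read 8411, 4584 and 6763 in control and 14875, 15710.2 and 12210.3 with IL-1β. Line 7 was the lowest control and the highest IL-1β gel. The log2-fold change of CTSK was 1.15 (SE 0.27), a 2.22-fold higher level.

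CTSS read 1144, 1992 and 1981 in control and 4019, 7797 and 3972 with IL-1β (log2-fold change 1.59, SE 0.69). CTSZ read 3860.2, 3976 and 2609 in control and 1285, 2548 and 1623 with IL-1β (log2-fold change -0.97, SE 0.28). CD68 read 66.6, 216 and 287 in control and 181, 1769 and 665 with IL-1β. It was higher in 3 of 3 lines, but line 6 with IL-1β was below the controls of lines 7 and 8, so the groups overlapped (log2-fold change 1.89, SE 1.10).

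The remaining genes had small differences or were sparse. CTSB had a log2-fold change of -0.29 (SE 0.29), which was 0.03 without line 6. LAMP1 had 0.26 (SE 0.25) and LAMP2 -0.16 (SE 0.19). CTSL did not pass the filter: it read 43.3 in line 6 in control and 8.1 with IL-1β, whereas lines 7 and 8 read 0.94 to 4.27 in all 3 conditions. LAPTM5 read 103, 14.2 and 1.73 in control and 0, 87.0 and 4.26 with IL-1β. It was lower in line 6 and higher in lines 7 and 8, and its log2-fold change of -1.07 (SE 1.86) was 1.74 without line 6.

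**Figure D2:**
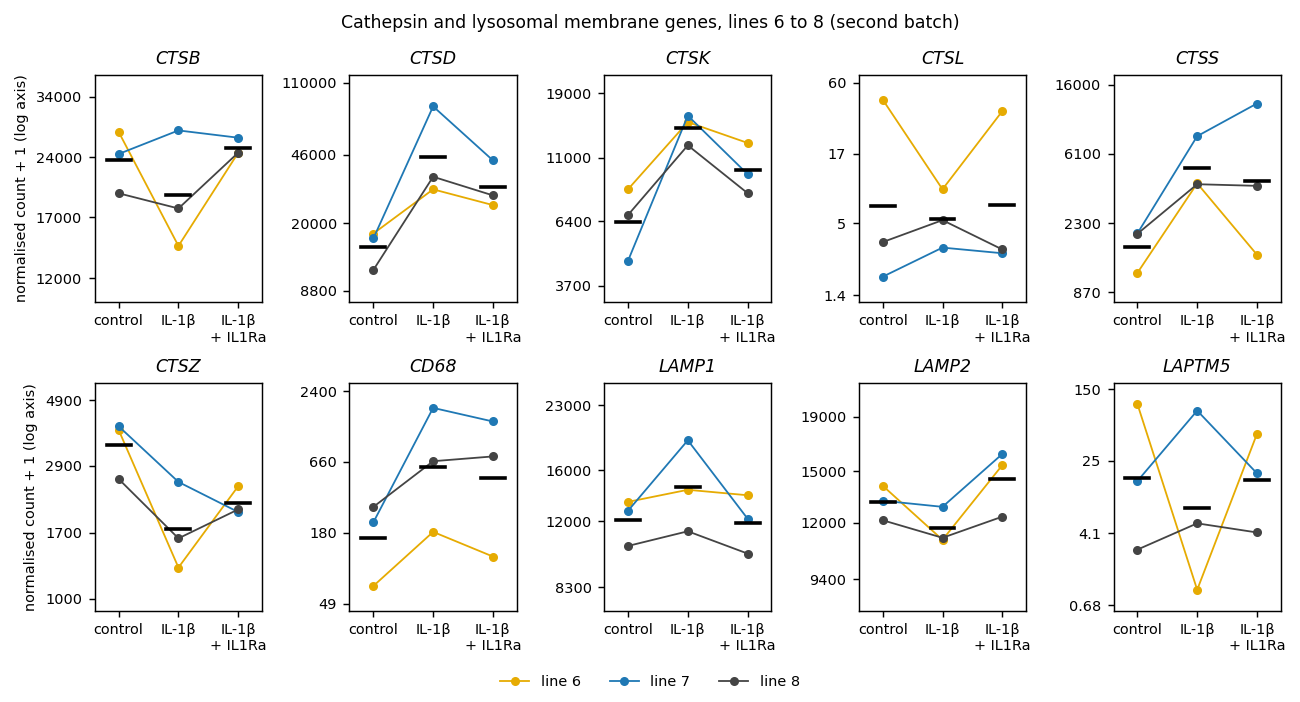
Normalised count plus 1 (y axis, log scale, its range set per gene) of the 10 genes in control, IL-1β and IL-1β + IL1Ra gels of lines 6 to 8. Each point is 1 library, a coloured line joins the gels of 1 tenocyte line, and black bars are means of the log2 values. CTSD and CTSK peak in IL-1β in 3 of 3 lines, while CTSS in line 7 is highest with IL1Ra (12331).

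The gels with IL1Ra asked whether the receptor antagonist changed the level reached with IL-1β. The comparisons of IL-1β and of IL-1β + IL1Ra with control share the same 3 control gels. Between IL-1β and IL-1β + IL1Ra, 0 of the 9 genes tested were DE, beside 0% of all genes in limma (464 genes at an unadjusted p under 0.05), and 1 gene (0.00599%) was DE with the block. Against control, 0 of the 9 genes were DE with IL-1β + IL1Ra, where 0.012% of all genes were, and 0 were with the block, where 0.251% of all genes were. At an unadjusted p under 0.05 were 3 of the 9 genes with IL-1β + IL1Ra against control and 0 of 9 between IL-1β and IL-1β + IL1Ra, beside 5.67% and 2.78% of all genes. At 3 lines these counts do not show that IL1Ra left the genes unaltered.

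CTSD with IL1Ra read 24924, 42908 and 28042 in lines 6, 7 and 8, below IL-1β alone in 3 of 3 lines and above every control. Its log2-fold change against control was 1.06 with IL1Ra and 1.57 without it. CTSK with IL1Ra read 12464, 9559.8 and 8135, again lower than IL-1β alone in 3 of 3 lines, with log2-fold changes against control of 0.63 and 1.15. The difference between IL-1β and IL-1β + IL1Ra was 0.52 (SE 0.43) for CTSD and 0.52 (SE 0.27) for CTSK.

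CTSS with IL1Ra read 1476, 12331 and 3882. The 3 lines did not move alike: line 6 was closer to its control, line 8 was near its IL-1β level, and line 7 exceeded its IL-1β level. CD68 with IL1Ra read 115, 1378 and 726, lower than with IL-1β in lines 6 and 7 and slightly higher in line 8. CTSZ with IL1Ra read 2463, 2003 and 2045. It was below every control, with a log2-fold change of -0.66 (SE 0.28).

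LAMP2 with IL1Ra read 15391, 16152 and 12315, higher than with IL-1β in 3 of 3 lines, and LAMP1 read 13888, 12180.5 and 10017, lower in 3 of 3 lines. The differences between IL-1β and IL-1β + IL1Ra were -0.31 (SE 0.19) and 0.29 (SE 0.25). CTSB with IL1Ra read 24644 to 26867 and LAPTM5 3.19 to 48.2. Groups did not overlap between IL-1β + IL1Ra and control for CTSD and CTSZ, as for 11.8% of all genes, and the groups of all 10 genes overlapped between IL-1β and IL-1β + IL1Ra, where 6.47% of all genes did not.

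Other genes of the lysosome were taken from 6 lists by known function, of which 89 genes were in the tables. These lists were drawn up with earlier results of these data known, so their counts in both batches are a description. In lines 1 to 5, 81 were tested and 9 were DE, 5 upregulated and 4 downregulated, a share near the 12.8% of all genes. Without the fold minimum 39 of the 81 had an adjusted p under 0.05, beside 27.7% of all genes, and 31 of those were higher, beside 13.1%. Their median log2-fold change was 0.27.

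CTSC, the dipeptidyl peptidase that activates serine proteases of white blood cells, was the only other cathepsin DE among 6 tested. It read 365, 19.4, 23.4, 364 and 236 in control and 2469, 2717, 2048, 15323 and 6299 with IL-1β. All 5 IL-1β gels stood above all controls, and the highest level was that of line 4. CTSC rose by a log2-fold change of 5.27 (SE 0.95, limma adjusted p = 0.00278). CTSH, an aminopeptidase, had a log2-fold change of 0.36 (adjusted p = 0.392).

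All 3 cathepsin inhibitors tested were DE, but not in one direction. CST3, the secreted inhibitor cystatin C, fell from 9846, 10389, 14160.5, 13638 and 15625 to 3801, 5037, 5248, 4205 and 4161, a log2-fold change of -1.49 (SE 0.15, adjusted p = 0.000125). CST6, cystatin M, also fell (-2.13, SE 0.36, adjusted p = 0.00213). CSTA, the intracellular stefin A, rose by 2.84 (SE 0.35, adjusted p = 0.000353) from a low level, 4.48 to 12.9 in control and 41.2 to 85.4 with IL-1β.

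The V-ATPase pumps protons into the lysosome, which the cathepsins need for their maturation, and 16 of its subunits were tested. The mean was higher with IL-1β for all 16, and 13 of them rose at an adjusted p under 0.05, although only ATP6V0B (1.34, SE 0.15, adjusted p = 0.000207) and ATP6V1A (1.04, SE 0.16, adjusted p = 0.00131) were DE. ATP6V1A fell under the fold minimum without line 3 (0.96) or line 5 (0.93). Of 14 other membrane proteins 0 were DE in limma, 8 had an unadjusted p under 0.05 and 7 rose at an adjusted p under 0.05. Among them LAPTM4A, a relative of LAPTM5, rose by 0.74 (adjusted p = 0.00123), and LAPTM4B had a log2-fold change of -1.28 (adjusted p = 0.064, and 0.00909 with the line as a block).

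Of 34 hydrolases and cofactors only NEU1, the lysosomal sialidase, was DE. It rose from 1136 to 1319 in control to 2627 to 4131 with IL-1β (log2-fold change 1.46, SE 0.11, adjusted p = 3.24e-05). Of the 34, 8 had an adjusted p under 0.05, 5 higher and 3 lower. LGMN, an asparaginyl protease that processes cathepsins, had a log2-fold change of 0.27 (adjusted p = 0.29).

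Of 8 regulators and sorting receptors tested, 5 had a higher mean with IL-1β, and at an adjusted p under 0.05 3 rose and 2 fell. The 3 that rose were under the fold minimum. The transcription factors TFEB and MITF, of the family that drives lysosomal genes, were both DE and lower. TFEB read 449, 447, 772, 743 and 658 in control and 212, 272, 269, 394 and 249 with IL-1β (log2-fold change -1.13, SE 0.22, adjusted p = 0.00432). MITF read 607 to 1408 in control and 208 to 439 with IL-1β (-1.67, SE 0.27, adjusted p = 0.0016). The groups did not overlap for either gene. These are transcript levels, and TFEB activity is known to be set mainly by its location in the cell, which was not measured. SORT1, a sorting receptor, had a log2-fold change of -1.58 (adjusted p = 0.136, and 0.00193 with the line as a block).

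**Figure D3:**
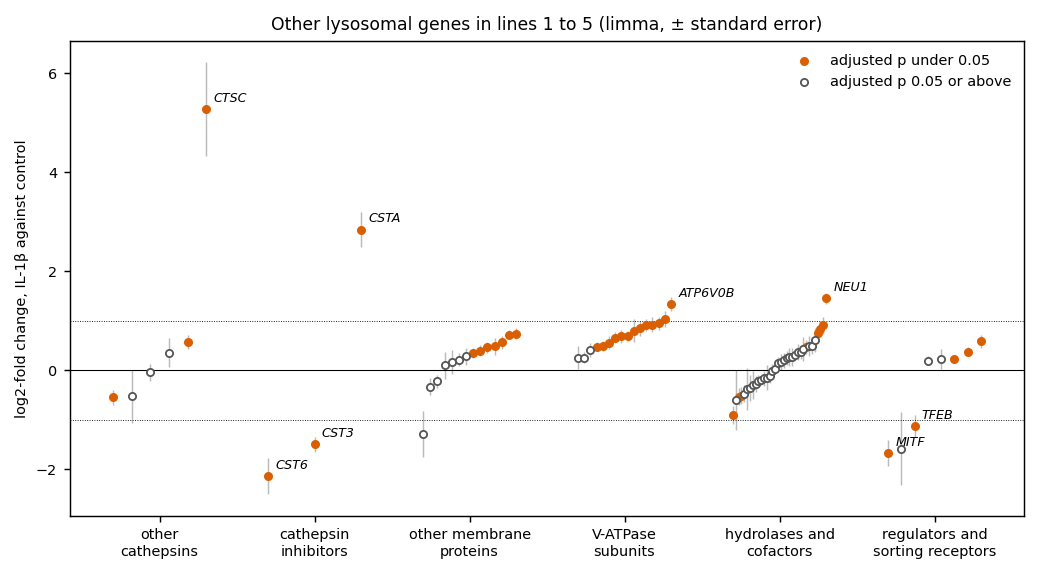
Log2-fold change of each other lysosomal gene tested (y axis, IL-1β against control in lines 1 to 5, grey bars are 1 standard error) by functional list (x axis). Filled points have a limma adjusted p under 0.05, and dotted lines mark the DE fold minimum of 1 in each direction. All 16 V-ATPase subunits lie above 0, and CTSC (5.27) is the highest point.

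In lines 6 to 8, 83 genes of these lists were tested with IL-1β against control. In limma 0 were DE, beside 0.341% of all genes, and 26 had an unadjusted p under 0.05, beside 11.4% of all genes. With the line as a block 8 were DE, beside 5.18% of all genes. CTSC read 26.7, 118 and 73.7 in control and 2912, 2058 and 4567 with IL-1β (log2-fold change 5.59, SE 1.07, adjusted p = 0.0873, and 0.0137 with the block). With IL1Ra CTSC read 101 and 140.1 in lines 6 and 7, far below their IL-1β gels, and 2004 in line 8. NEU1 had a log2-fold change of 1.38 (adjusted p = 0.0873, and 0.0107 with the block), and ATP6V0B 1.34 (adjusted p = 0.22, and 0.00917 with the block). TFEB had -0.63 (adjusted p = 0.476) and CST3 -1.48 (adjusted p = 0.299). With IL-1β + IL1Ra against control 0 of 83 were DE in limma and with the block, and 8 had an unadjusted p under 0.05, beside 5.67% of all genes. Between IL-1β and IL-1β + IL1Ra the count was also 0 in both fits, with 4 at an unadjusted p under 0.05, beside 2.78% of all genes.

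CD68, CTSS and LAPTM5 are used as markers of macrophages and other leukocytes, so 19 further markers of these cells were read in the same libraries. AIF1, C1QA, C1QB and C1QC were at 0 in every library of both batches, and TYROBP at 0 in 10 of 10 and 8 of 9. ITGAM was at 0 in only 1 of 10 and 1 of 9 libraries and reached 55.3 and 24.1. MARCO was at 0 in 2 of 10 and 4 of 9 and reached 40.3 and 9.22. LYZ was at 0 in 4 of 10 and 0 of 9 and reached 2.02 and 8.97. FCER1G, a signalling chain of Fc receptors, was detected in 9 of 10 and 8 of 9 libraries. It read 0 to 4.51 in control and 4.00 to 17.0 with IL-1β in the first batch, higher in 5 of 5 lines. It was below the filter there, and was DE without the filter (log2-fold change 2.11, limma adjusted p = 0.0192). In the second batch FCER1G reached 6.88 in control, 60.4 with IL-1β and 78.5 with IL1Ra, the last 2 in line 7. PTPRC, the gene of CD45, reached 6.46 at most and CSF1R 2.11. The summed level of the 19 markers was 81.0 to 2104 (median 92.5) in control and 46.2 to 2947 (median 88.3) with IL-1β in the first batch, and it was higher with IL-1β in 3 of 5 lines. In the second batch the sums were 38.5 to 1312 (median 56.4) in control, 52.2 to 1404 (median 1213) with IL-1β and 46.7 to 1554 (median 825) with IL1Ra, higher with IL-1β than in control in 2 of 3 lines. The part of these markers in the levels of CD68, CTSS and LAPTM5 was not tested.

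The high sums came from CD14, which varied by line. CD14 read 1947 in control and 2811 with IL-1β in line 5, 1195, 1158 and 1482 in the 3 gels of line 6, and 0, 1262 and 645 in those of line 7. In the other lines it was between 0 and 71.4. Line 7 had the highest CD68 level of its batch in the IL-1β gel, where CD14 was 1262, and the highest CTSS level with IL1Ra, where CD14 was 645. Line 6, with high CD14 in all 3 gels, had the lowest CD68 of the 3 lines in every condition. CORO1A, an actin regulator of leukocytes and the only 1 of the 19 tested in the first batch, fell by 1.20 on the log2 scale (adjusted p = 0.0259), and was not DE without line 1, 3 or 4.

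CTSK is the protease of bone-resorbing osteoclasts. Of 5 osteoclast markers, DCSTAMP, OCSTAMP and CALCR were at 0 in 10, 9 and 8 of the 10 first-batch libraries and reached 2.86 at most in the second batch. Most of the summed level of the 5 was the integrin gene ITGB3, which read 161 to 3833 in the second batch. The sum was 633 to 3303 in control and 765 to 6157 with IL-1β in the first batch (higher in 4 of 5 lines). In the second batch it was 293 to 1108, 206 to 3864 and 273 to 3751 in control, IL-1β and IL1Ra. The summed level of 5 endothelial markers was 15.2 to 91.0 over all libraries.

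CTSS acts on CD74, the class II invariant chain, and the class II genes split the lines. CD74 read 20907 and 1395 in the controls of lines 1 and 2, and 39.0 and 197 in their IL-1β gels. In lines 3, 4 and 5 it read 0 to 28.6 in control and 4.17 to 105 with IL-1β. CTSS was higher with IL-1β in lines of both kinds. None of the 7 class II genes was DE in lines 1 to 5 in limma, 0 had an unadjusted p under 0.05, and DRA and DQA had log2-fold changes of -2.27 (SE 2.33) and -1.88 (SE 2.01).

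In the second batch CD74 read 19305 and 24092 in the controls of lines 7 and 8, 153 and 126 with IL-1β, and 40609 and 13401 with IL1Ra, whereas line 6 read 0, 5.84 and 0. Line 7 with IL1Ra thus had the highest level of both CTSS and CD74 in that batch. Over lines 6 to 8 none of the 7 genes was DE with IL-1β and 0 had an unadjusted p under 0.05. Leaving out line 6 sets aside the line in which CD74 was nearly absent, and it leaves 2 lines. In that fit the log2-fold change of CD74 with IL-1β was -7.27 against control and -7.38 against IL-1β + IL1Ra. Because the line left out differs in CD74 itself, no p-value is given. When line 7 or 8 was left out, 0 genes were DE in limma in either comparison.

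**Figure D4:**
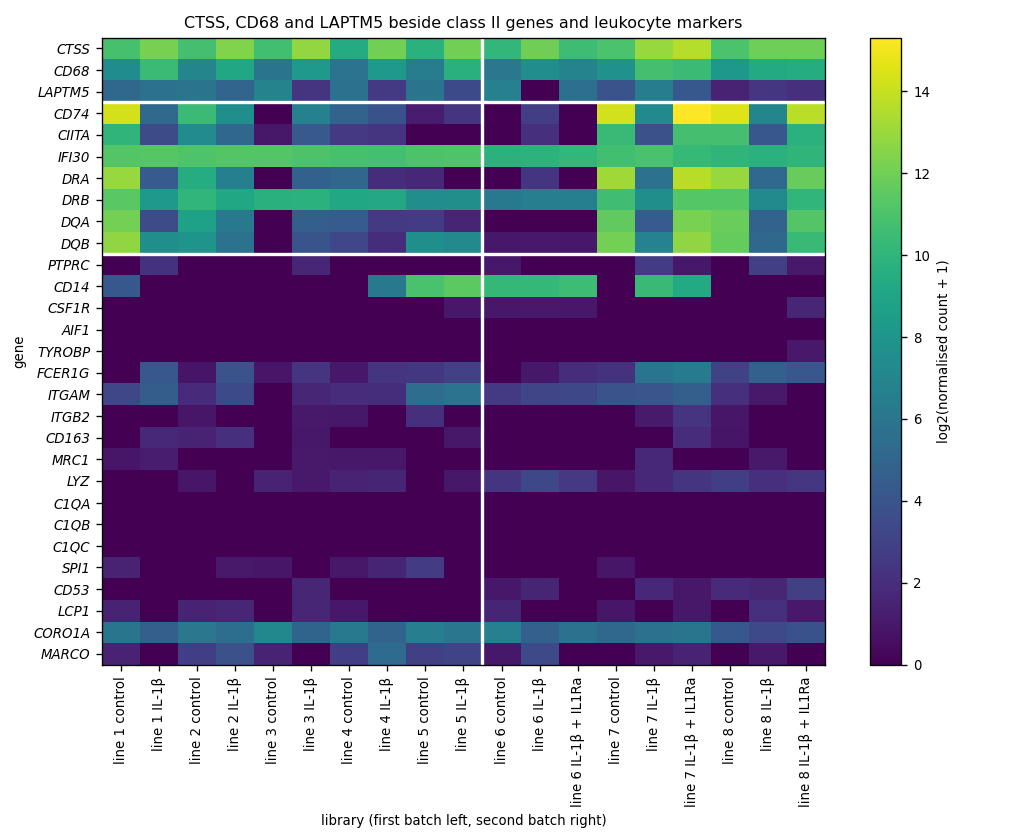
Log2(normalised count + 1), shown by colour, of CTSS, CD68 and LAPTM5 (top), 7 class II genes (middle) and 19 macrophage and leukocyte markers (bottom) in each of the 19 libraries (x axis). The batches were normalised separately, so colours compare within a batch. CTSS and CD68 are detected in every library, AIF1, C1QA, C1QB and C1QC are at 0 throughout, and CD74 is high in the control gels of lines 1, 2, 7 and 8.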

How the data were processed

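RNA from whole gels was sequenced as paired-end reads from a stranded mRNA library. The authors quantified transcripts of EquCab3.0 with Salmon, with correction for GC bias, imported gene-level values through tximport, and scaled the counts with DESeq2 1.36 in R 4.2.1. The deposited values are signal, namely gene counts divided by size or normalisation factors within each batch, and are not whole reads, so no count model was applied. Groups came from the sample labels, each library is 1 tenocyte line in 1 condition, and no 2 libraries were identical.

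Log2(normalised count + 1) was tested with limma 3.58.1 in R 4.3.3 (trend in the variance prior, Benjamini-Hochberg over all genes tested in a comparison). Genes needed 10 normalised counts in 5 (first batch) or 3 (second batch) libraries. DE meant an adjusted p under 0.05 together with a log2-fold change of 1 or more in size. Differences are means of log2 values on this scale, which understates changes of low genes. SEs are those of limma without the line as a block, so they also hold differences in level between lines. The fit was tested on simulated data.

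Lines came from separate horses and supplied a gel to each condition of their batch, which pairs the gels. Deviations from the group means correlated at 0.351 to 0.578 (5 pairs) and 0.535 to 0.794 (9 pairs) within a line, and at -0.356 to 0.288 and -0.625 to 0.249 between lines. The study states no block, so the line was a block in an alternative fit. Batches were never pooled.

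The 10 genes and all lists were chosen with earlier results of these data known. Named genes were the 10 members, up to 4 DE genes of each list by largest change (up to 2 where none was DE), and a set of genes with known roles. ITGB3, OSCAR, DCSTAMP, OCSTAMP, CALCR, AIF1, C1QA, C1QB, C1QC, TYROBP, FCER1G, ITGAM, MARCO, LYZ, TNMD, TNC, THBS4 and COL1A2 were named after their values were seen. Alternatives were other pseudocounts (0.5 and 8), filters (none and 50), scalings and variance priors, the block, no fold minimum, only the 2 conditions compared, and each line left out. The depth in reads of each library was not among the values used here.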

Additional observations from a re-analysis of the deposited data

Results flagged for a closer look

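Among 20 sets of 5 control or IL-1β gels, 1 held a gel far from the others. CTSK in the control gel of line 2 was 9404, against 14166 to 14899 in the other 4 controls of its batch. Its gap to the next gel was 0.890 of the range of the group, above the limit of 0.71 for 5 samples. Chance alone marks about 1 in 20 such sets. Without line 2 the log2-fold change of CTSK with IL-1β was 0.43, compared with 0.57 over 5 lines, and CTSK was not DE in either.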

How the results depend on the processing

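Some counts of DE genes depended on the setting. Of the 10 genes, 5 were DE with IL-1β in the first batch and 4 to 6 under each alternative, with 4 to 5 when a line was left out. Of the other lysosomal genes, 9 were DE, 39 without the fold minimum, and 8 to 11 when a line was left out. In the second batch the tenocyte line as a block raised the DE genes with IL-1β from 0 to 3 of the members and from 0 to 8 of the other lysosomal genes, where fitting only the 2 conditions compared gave 1 and leaving out a line gave 0 to 1 (1 without line 6). Beside the changes given with LAPTM5, LAPTM4B and SORT1, pairing by line changed no other call among the genes named from these lists in the first batch. Both IL1Ra comparisons gave 0 throughout for both sets of genes.

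Of 450 recomputed log2-fold changes of the 10 genes, 449 moved by less than 1 SD between lines and 0 called values reversed. Filters, variance priors, the block and fits of only 2 conditions cannot move a mean log2 difference, so part of this count was fixed beforehand. That SD was wide for LAPTM5, whose second-batch change with IL-1β counted as under 1 SD from -1.07 to 1.74 without line 6. LAMP2 in the second batch moved from -0.16 to -0.34 when libraries were rescaled to the same sum, which shifted the median of all genes to -0.19. A change of sign was seen for 7 values that were not called, when line 6 or 8 was left out, among them CTSS between IL-1β and IL-1β + IL1Ra (0.27, and -0.31 without line 6). The number of lines, 3 in the second batch, and the low counts of CTSL and LAPTM5 limit the precision.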

Other observations

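By the log2 ratio of IL-1β to control in the 8 lines, the genes nearest to CD68 among 14478 were MFSD2A (Euclidean distance 0.948), TXNRD1 (1.40), SLC31A2 (1.54), NPL (1.57) and FTL (1.79). The mean log2 ratio over the 8 lines was 2.36 for CD68, 2.39 for MFSD2A, a lipid transporter, and 2.25 for TXNRD1, a thioredoxin reductase. For CTSL, the member with the lowest first-batch ratio, no likeness is given, because it read only 0.94 to 4.27 in lines 7 and 8. These distances mix lines of separately normalised batches and describe likeness of the ratios only.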
